A study of Mus musculus with 6 samples.

Results

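The genes Igf2r, Airn, Slc22a2, Slc22a3 and Mas1 are neighbours on mouse chromosome 17. They are 5 of the 37991 genes in the count tables, found by Ensembl identifier, and were chosen by their location together with their measured counts in these 3 groups, which were already known. Their own differences between groups are therefore described with values and errors but without a p-value. The samples were 2 primary tumours and 2 KAP1-deleted livers from mice carrying TgAlbCreKap1lox, and 2 control livers from mice carrying TgAlbCre. All mice were 35 weeks old at sacrifice, after 27 weeks of high-fat feeding. TgAlbCre expresses Cre recombinase from the albumin promoter, which is active in hepatocytes, so control livers carry Cre too. Which other liver cells of the deleted mice keep the gene was not tested. The mouse codes show that a tumour and a KAP1-deleted liver with the same replicate number are from 1 mouse. The labels do not say how the 4 mice were bred or housed, and with 2 libraries per group a p-value speaks of the spread among these libraries alone.

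Igf2r encodes the cation-independent mannose 6-phosphate receptor, which carries lysosomal enzymes to the lysosome and takes up insulin-like growth factor II for degradation. In mouse the gene is imprinted in most tissues. The long non-coding RNA Airn starts inside Igf2r, runs antisense to it on the paternal chromosome and silences Igf2r there, while methylation set in the egg keeps the Airn promoter silent on the maternal chromosome. In placenta Airn also silences Slc22a2 and Slc22a3, which encode the organic cation transporters OCT2 and OCT3. Mas1 encodes a G protein-coupled receptor for a short angiotensin peptide that opposes angiotensin II. KAP1, the product of Trim28, is a co-repressor brought to DNA by zinc finger proteins, one of which, ZFP57, protects methylation at imprinted control regions. The counts do not separate the parental alleles.

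Promoter windows from 250 bases before to 50 bases after the start are shown for the 4 of the 5 genes with the highest fold changes between tumour and control liver, since promoter methylation is part of how this domain is imprinted. The sequences are from RefSeq on GRCm38.p6, which holds windows for 5 of the 5 genes, and capitals mark each CG, the pair of bases that carries most DNA methylation.
Igf2r, chr17:12769657-12769956, minus strand: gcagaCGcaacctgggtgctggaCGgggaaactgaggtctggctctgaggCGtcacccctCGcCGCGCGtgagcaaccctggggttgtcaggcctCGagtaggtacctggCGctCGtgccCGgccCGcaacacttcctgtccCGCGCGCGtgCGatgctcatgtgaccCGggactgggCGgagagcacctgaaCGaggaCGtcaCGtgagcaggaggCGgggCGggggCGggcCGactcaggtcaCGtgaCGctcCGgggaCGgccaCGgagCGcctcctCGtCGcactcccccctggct
Airn, chr17:12741061-12741360, plus strand: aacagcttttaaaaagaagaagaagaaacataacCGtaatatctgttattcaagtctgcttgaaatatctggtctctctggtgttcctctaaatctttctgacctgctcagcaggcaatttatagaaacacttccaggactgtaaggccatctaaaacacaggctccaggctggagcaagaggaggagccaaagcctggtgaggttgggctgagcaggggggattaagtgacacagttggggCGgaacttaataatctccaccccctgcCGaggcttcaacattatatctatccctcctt
Slc22a3, chr17:12507655-12507954, minus strand: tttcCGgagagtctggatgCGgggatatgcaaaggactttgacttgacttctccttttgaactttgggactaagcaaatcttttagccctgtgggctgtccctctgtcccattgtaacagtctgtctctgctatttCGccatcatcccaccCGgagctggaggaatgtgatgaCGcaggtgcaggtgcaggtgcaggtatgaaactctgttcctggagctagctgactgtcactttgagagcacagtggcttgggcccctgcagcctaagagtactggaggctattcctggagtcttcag
Mas1, chr17:12868094-12868393, minus strand: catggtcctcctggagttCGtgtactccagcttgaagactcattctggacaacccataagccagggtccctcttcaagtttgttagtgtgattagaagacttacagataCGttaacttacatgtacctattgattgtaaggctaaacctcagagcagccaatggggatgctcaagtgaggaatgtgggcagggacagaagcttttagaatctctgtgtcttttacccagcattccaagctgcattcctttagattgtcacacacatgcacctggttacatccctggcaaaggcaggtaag

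The Igf2r window held 34 CG pairs, and 6.95% of 32851 mouse promoter windows held more. The median window held 7. The Airn window held 3 and the Mas1 window 2, and 68.6% and 76.7% of windows held more. Slc22a3 had 5 and Slc22a2 had 8. The ZFP57 motif TGCCGC, searched on both strands, was present in 11.6% of all windows and in 1 of these 5, that of Slc22a2 at position -196 from the start. The TCF/LEF motif CTTTGAT, also searched on both strands and of different letters, was present in 3.73% of windows and in 0 of the 5. A match describes letters in this window and says nothing of binding. Sequence outside the windows was not searched, so the CG and motif counts do not describe any part of the imprint control region beyond them.

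**Figure D1:**
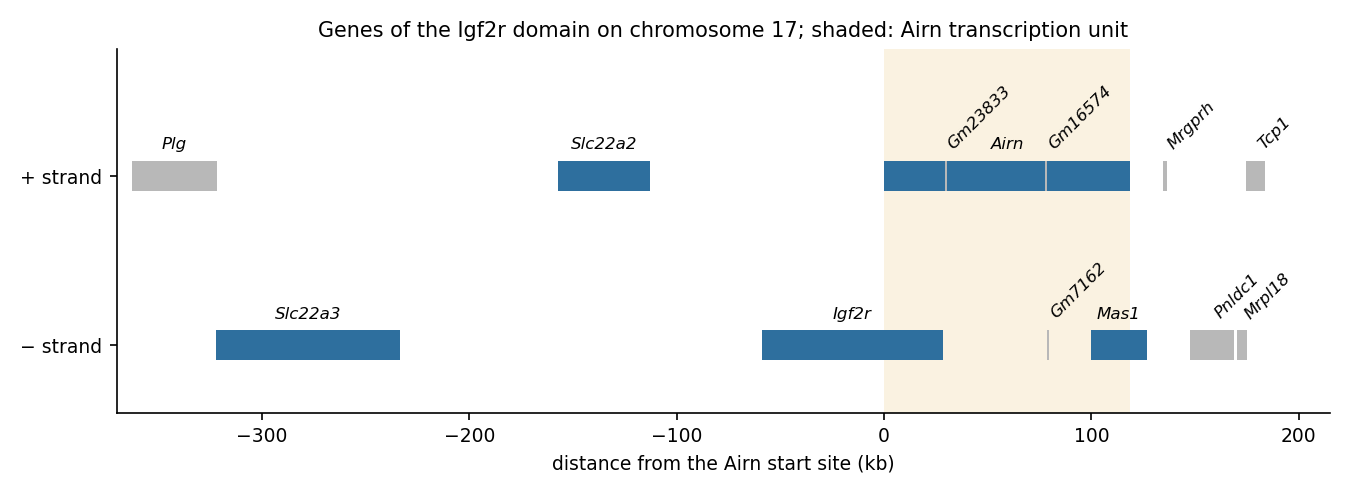
Map of the domain by distance in kilobases from the Airn start site, with genes on the plus strand above and on the minus strand below. Blue bars are the 5 genes, grey bars are other genes, and the shaded Airn transcription unit covers the start of Igf2r and most of Mas1.

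Counts in genes totalled 43173982 to 55316370 in tumours, 50977644 to 53744834 in the KAP1-deleted livers and 39723997 to 62178752 in control livers. Levels are CPM (counts relative to a TMM-adjusted library size), and fold changes come from edgeR on all 6 libraries. Trim28 stood at 5.22 and 4.59 CPM in tumours, at 5.06 and 6.02 CPM in the KAP1-deleted livers, and at 32.5 and 35.9 CPM in control livers. It fell in KAP1-deleted against control liver (log2 fold change -2.63 ± 0.19, edgeR adjusted p = 0.00393), which fits the labels. Of 17558 genes tested, 11.4% were called (adjusted p below 0.05) for tumour against KAP1-deleted liver, 13.9% for tumour against control liver, and 0.336% for KAP1-deleted against control liver. All 5 genes passed the filter on low counts. Between tumour and KAP1-deleted liver 842 of 2007 called genes were higher in tumours, and 970 of 1866 with upper-quartile scaling.

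Among the 5 genes, Airn had the highest log2 fold change between tumours and KAP1-deleted livers. It stood at 25.0 and 15.2 CPM in tumours (1812 and 796 counts), at 0.954 and 0.530 CPM in the KAP1-deleted livers (42 and 25 counts), and at 1.18 and 0.764 CPM in control livers (41 and 45 counts). Both tumours lay far above all 4 livers, and the 2 kinds of liver overlapped. The fitted difference was 27.1-fold against KAP1-deleted liver (log2 fold change 4.76 ± 0.41) and 21.0-fold against control liver (4.39 ± 0.40). Between KAP1-deleted and control liver the log2 fold change was -0.37 ± 0.41, less than its error. Leaving out each library in turn gave 4.35 to 5.23 for the log2 fold change between tumour and KAP1-deleted liver. Tumour replicate 1 was the higher of the tumours.

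Between tumours and livers, features annotated inside the Airn transcription unit followed its exons. Gm23833, a small gene on the same strand, stood at 5.18 and 3.69 CPM in tumours, at 0.159 and 0.0636 CPM in the KAP1-deleted livers, and at 0.318 and 0.221 CPM in control livers. Gm16574, also on that strand, stood at 2.18 and 1.41 CPM in tumours, at 0.159 and 0.106 CPM in the KAP1-deleted livers, and at 0.0866 and 0.0340 CPM in control livers. Gm7162, on the opposite strand, stood at 2.90 and 1.64 CPM in tumours, at 0.136 and 0.0847 CPM in the KAP1-deleted livers, and at 0.0866 and 0.187 CPM in control livers. In each case both tumours exceeded all livers. Among the livers, Gm23833 and Gm16574 had 2 to 13 counts and did not go alike. Both KAP1-deleted livers lay below both controls for Gm23833 (log2 fold change -1.24 ± 0.54) and above them for Gm16574 (1.23 ± 0.70). Reads of unspliced Airn would fall on the first pair, and on Gm7162 if the counting ignored strand, so they are given as values of the same unit and not as separate genes.

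Igf2r, the protein-coding gene that Airn overlaps, was also higher in the tumours, by a smaller fold. Its level was 171 and 151 CPM in tumours, 64.5 and 79.5 CPM in the KAP1-deleted livers, and 55.1 and 87.9 CPM in control livers. The tumours lay above all 4 livers, while the KAP1-deleted livers lay inside the range of the controls. The mean was 161 ± 14.0 CPM in tumours, 72.0 ± 10.6 CPM in the KAP1-deleted livers and 71.5 ± 23.1 CPM in control livers (SD, n = 2 each). The tumours were 2.24-fold higher than KAP1-deleted liver (log2 fold change 1.16 ± 0.25) and 2.25-fold higher than control liver (1.17 ± 0.25). Between KAP1-deleted and control liver the log2 fold change was 0.01 ± 0.25. Airn and Igf2r were thus both at their highest in the tumours. Of the exon bases of Igf2r, 519 of 9308 lie inside the Airn span, on the other strand.

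The cation transporter genes to the other side of Igf2r differed in the size of their fold changes. Slc22a3 stood at 47.9 and 25.9 CPM in tumours, at 2.75 and 3.37 CPM in the KAP1-deleted livers, and at 3.38 and 4.63 CPM in control livers. Tumour replicate 1 was the higher of the tumours, and both lay well above the livers. The difference was 12.1-fold against KAP1-deleted liver (log2 fold change 3.59 ± 0.34) and 9.17-fold against control liver (3.20 ± 0.33). Both KAP1-deleted livers lay just below both controls, with a log2 fold change of -0.40 ± 0.32 between them. Slc22a3 exons share 420 bases with exons of Plg, the plasminogen gene on the other strand. Plg itself went the other way, at 643 and 720 CPM in tumours, 1154 and 1204 CPM in the KAP1-deleted livers and 1098 and 1076 CPM in control livers.

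Slc22a2, which lies between Slc22a3 and Igf2r, had few counts in every library (57 to 309). It stood at 4.27 and 3.22 CPM in tumours, at 2.09 and 1.99 CPM in the KAP1-deleted livers, and at 1.65 and 3.26 CPM in control livers. The tumours lay above the KAP1-deleted livers but overlapped the controls, where replicate 2 was as high as the lower tumour. Its log2 fold change was 0.88 ± 0.35 against KAP1-deleted liver and 0.60 ± 0.34 against control liver. Between KAP1-deleted and control liver it was -0.28 ± 0.35, and 0.29 without control replicate 2. Of the 31-base words of Slc22a2 and Slc22a3, 92.3% and 91.3% occur in no other reference gene on either strand, so a part of their reads could belong to other genes. The shared words of Slc22a3 include those of the 420 bases that its exons share with Plg exons. How many of the shared words come from relatives was not tested.

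Mas1, at the far end of the Airn unit, had a pattern of its own. It stood at 10.7 and 10.2 CPM in tumours (773 and 536 counts), at 5.61 and 10.3 CPM in the KAP1-deleted livers (247 and 484 counts), and at 0.115 and 0.390 CPM in control livers (4 and 23 counts). Tumours and KAP1-deleted livers overlapped, and all 4 libraries with the deletion lay above both controls. The mean was 10.4 ± 0.330 CPM in tumours, 7.93 ± 3.28 CPM in the KAP1-deleted livers and 0.253 ± 0.194 CPM in control livers (SD, n = 2 each). The log2 fold change was 4.84 ± 0.49 for KAP1-deleted against control liver, 5.23 ± 0.49 for tumour against control liver, and 0.40 ± 0.37 for tumour against KAP1-deleted liver. The first of these ranged from 4.33 to 6.05 when each library was left out in turn. Of the 5 genes Mas1 alone was above both controls in both KAP1-deleted livers. The labels confound the deletion with which mice were used, so the deletion and the mouse cannot be told apart here.

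**Figure D2:**
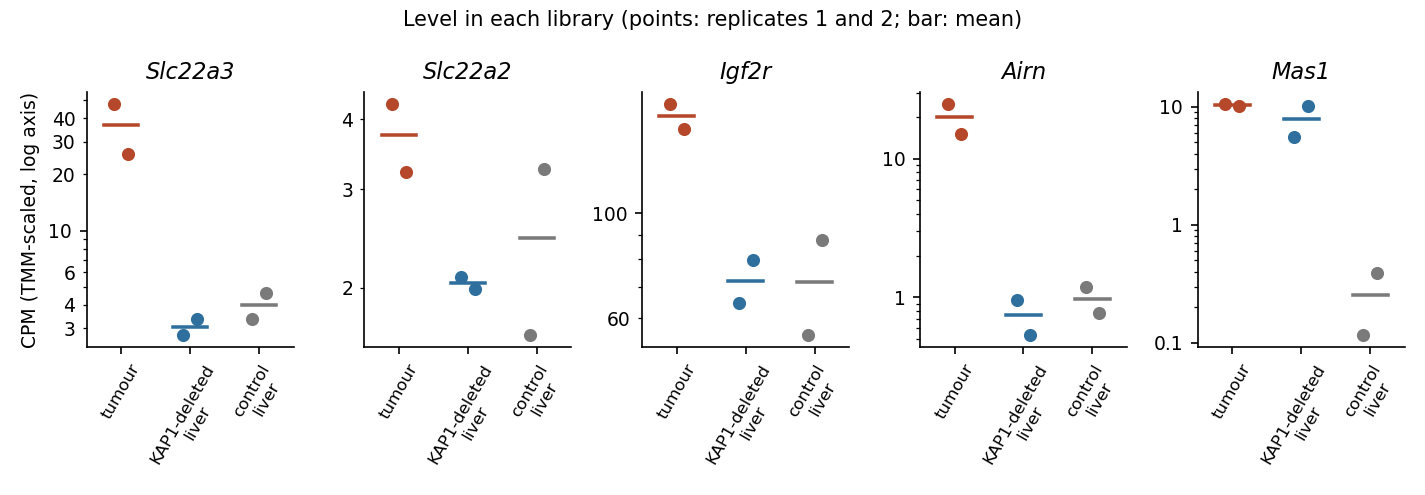
CPM in each library on log axes for the 5 genes, with tumours (red), KAP1-deleted livers (blue) and control livers (grey) from left to right. Points are replicates 1 and 2 and bars are means. Mas1 is high in all 4 libraries with the deletion, and Airn, Slc22a3 and Igf2r are high in the tumours.

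The overlap of Mas1 with Airn bears on its counts. Of the exon bases of Mas1, 2290 of 2620 (87.4%) lie inside the Airn span on the other strand, and none is shared with Airn exons. The library kit was stranded per the labels, but the sources used here do not give the strand setting of the counting. Elsewhere, 54 genes lie at least 98% inside exons of an opposite-strand gene with at least 5000 counts. Of these 41 (75.9%) had 0 counts, against 25.0% of the 32919 genes with a symbol. This cannot settle the strand setting. If strand is ignored, reads over exons of both genes are set aside as ambiguous, which also gives counts near 0. In KAP1-deleted livers Mas1 stood at 2.14 and 3.91 CPM per kb of exon. In the same livers Airn exons stood at 0.265 and 0.147, Gm23833 at 0.631 and 0.252, Gm16574 at 0.213 and 0.142 and Gm7162 at 0.133 and 0.0828 CPM per kb. In each of those livers Mas1 had the highest value of the 5. In tumours Mas1 stood at 4.07 and 3.90 CPM per kb, Airn exons at 6.96 and 4.21, Gm23833 at 20.5 and 14.7, Gm16574 at 2.93 and 1.89 and Gm7162 at 2.83 and 1.60 CPM per kb, so Mas1 lay below Gm23833 and Airn exons there. The part of unspliced Airn in the tumour counts of Mas1 was not tested.

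**Figure D3:**
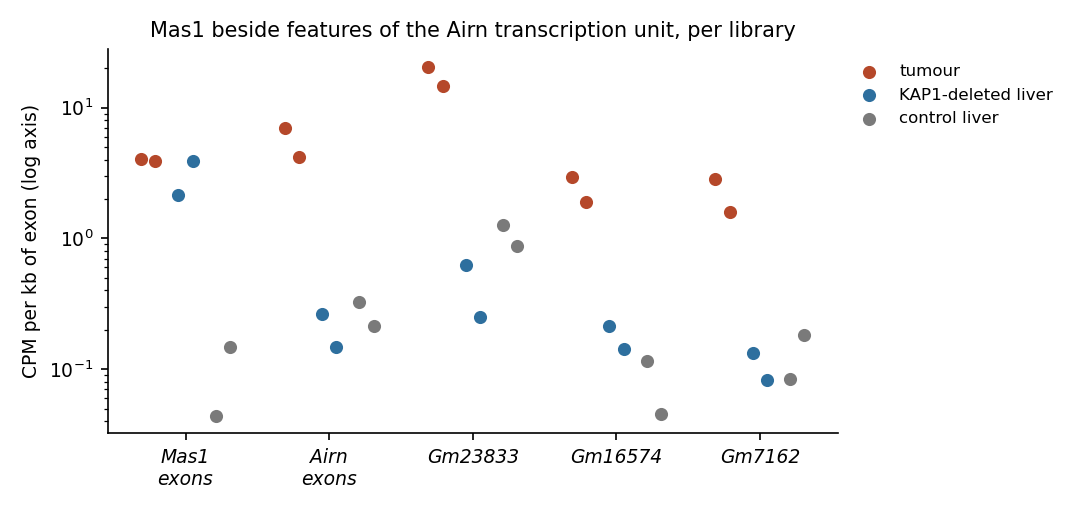
CPM per kb of exon in each library for Mas1, Airn exons, Gm23833, Gm16574 and Gm7162, on a log axis, with tumours (red), KAP1-deleted livers (blue) and control livers (grey) from left to right. In KAP1-deleted livers Mas1 stands at 2.14 and 3.91, while the 4 features of the Airn unit lie between 0.0828 and 0.631. In tumours Gm23833 and Airn exons lie above Mas1.

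Per kb of exon, mean levels in tumours ran from Igf2r (17.3 ± 1.5 CPM per kb) to Slc22a3 (8.18 ± 3.45), Airn (5.59 ± 1.94), Mas1 (3.98 ± 0.126) and Slc22a2 (1.51 ± 0.299; SD, n = 2 each). Ranges of the 2 libraries overlapped between Slc22a3 and Airn, and each other neighbour in that order was apart. In KAP1-deleted livers the order was Igf2r (7.73 ± 1.14 CPM per kb), Mas1 (3.03 ± 1.25), Slc22a2 (0.822 ± 0.0278), Slc22a3 (0.678 ± 0.0973) and Airn (0.206 ± 0.0834), with no overlap between neighbours. In control livers it was Igf2r (7.68 ± 2.49 CPM per kb), Slc22a2 (0.988 ± 0.460), Slc22a3 (0.888 ± 0.197), Airn (0.271 ± 0.0825) and Mas1 (0.0966 ± 0.0742), where Slc22a2 and Slc22a3 overlapped. Mas1 thus held the last place in control livers and the second in the KAP1-deleted livers.

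Along the chromosome, all 5 genes had a log2 fold change above 0 between tumour and KAP1-deleted liver, from 0.40 to 4.76 with a median of 1.16. That of Mas1 was close to its error and its groups overlapped, while those of the other 4 did not. Among all tested genes the median was -0.03 and 47.8% were above 0. Of the 7 tested genes among the nearest 5 on each side, 1 was above 0, with a range from -0.79 to 0.18. None of the 7 was called by edgeR (adjusted p 0.0601 to 0.612), while 1 had an unadjusted p below 0.05 and DESeq2 and limma-voom each called 1, Plg. Plg, the flanking gene nearest to the threshold, had an adjusted p of 0.0463 without control replicate 1, and 0.000744 to 0.330 under all alternatives. Against control liver the 5 were above 0 in 5 of 5 cases (0.60 to 5.23), with overlapping groups for Slc22a2, and the flank in 2 of 7 (-0.67 to 0.22). Between KAP1-deleted and control liver 2 of 5 were above 0, with a median of -0.28, as were 6 of 7 flanking genes. The 5 were chosen on these values, so their difference from the flanks is a description. The comparisons against control and against KAP1-deleted liver share the tumour libraries.

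Of the 5 genes, 3 were called between tumour and KAP1-deleted liver (Igf2r, Airn and Slc22a3), beside 11.4% of all genes tested (4.8% higher and 6.64% lower). Against control liver 4 were called (these and Mas1), beside 13.9% (6.15% higher and 7.76% lower). In KAP1-deleted against control liver 1 was called (Mas1), beside 0.336% (0.239% higher and 0.0968% lower). The choice of genes rested on these values, so nothing is read from the counts. Igf2r lost its call against KAP1-deleted liver without any 1 of the tumour or KAP1-deleted replicates, leaving 2 of 5, and against control liver without either tumour replicate, leaving 3 of 5. Slc22a2 was also called, giving 4 of 5 between tumour and KAP1-deleted liver, with mouse as a block, with every gene of at least 1 count, and with only the 4 libraries of both groups. Mas1 lost its call between KAP1-deleted and control liver with limma-voom and with only those 4 libraries in the fit.

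**Figure D4:**
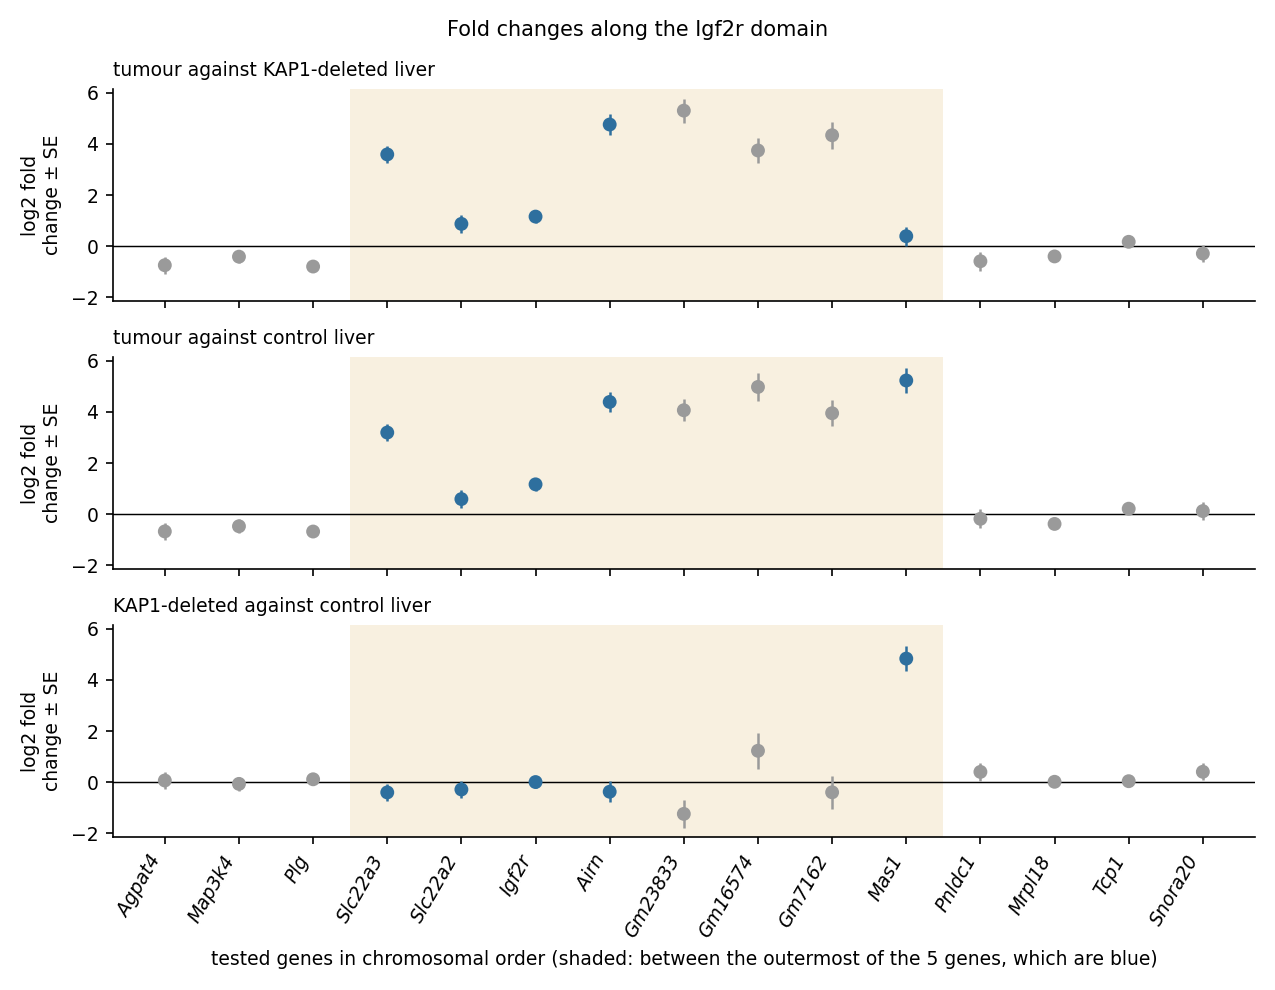
Log2 fold change ± SE (edgeR) for the described genes in chromosomal order, with the 5 genes in blue, other genes in grey and the stretch between the outermost of the 5 shaded. In both tumour comparisons the 5 genes lie above 0, Mas1 against KAP1-deleted liver by 0.40 ± 0.37, and between KAP1-deleted and control liver Mas1 stands at 4.84 while the other 4 of the 5 genes lie between -0.40 and 0.01.

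Markers of liver cell types also differed between these groups. Summed hepatocyte markers (8 genes) stood at 22488 and 41179 CPM in tumours, 70066 and 80229 CPM in the KAP1-deleted livers, and 78104 and 87955 CPM in control livers. Alb made up most of each sum, with 18162 and 34887 CPM in tumours. The tumours were closer for Hnf4a (188 and 204 CPM) but not for Ttr (786 and 1637 CPM). Macrophage markers (7 genes) summed to 208 and 243 CPM in tumours, against 452 to 492 CPM in livers, and endothelial markers (6 genes) to 191 and 172 CPM in tumours, against 252 to 276 CPM in livers. Stellate markers (7 genes) summed to 144 and 212 CPM in tumours and 224 to 293 CPM in livers. Their members went both ways: Dcn stood at 35.9 and 100.3 CPM in tumours, against 154 and 203 CPM in KAP1-deleted livers. Col3a1 stood at 75.3 and 78.4 CPM in tumours, against 25.8 and 38.2 CPM in KAP1-deleted livers. Neither Dcn nor Col3a1 was called. Des stood at 0.828 and 1.60 CPM in tumours, against 3.61 and 2.86 CPM in KAP1-deleted livers. It was the 1 stellate marker called there (log2 fold change -1.42 ± 0.34, edgeR adjusted p = 0.0361). Cholangiocyte markers (6 genes) summed to 3.05 and 22.0 CPM in tumours and 15.5 to 34.5 CPM in livers. Of the tumour sums, Spp1 gave 2.53 and 19.6 CPM. Lymphocyte markers (7 genes) summed to 32.6 and 66.9 CPM in tumours and 28.9 to 39.3 CPM in livers. Ptprc gave 29.7 and 61.7 CPM of the tumour sums. Other lymphocyte markers went both ways. Cd8a stood at 0.704 and 1.66 CPM in tumours, against 0.182 and 0.381 CPM in KAP1-deleted livers. Cd79a stood at 0.166 and 0.133 CPM in tumours, against 0.204 and 0.508 CPM in KAP1-deleted livers. Exocrine pancreas markers (5 genes) reached 23.3 CPM in KAP1-deleted replicate 2 and 38.2 CPM in tumour replicate 2, and 4.97 to 9.24 CPM elsewhere. In that tumour Cela1 gave 37.9 CPM of the sum, and Prss2, Cpa1, Pnlip and Amy2a5 had 2 to 7 counts each. In that liver these 4 had 140 to 178 counts each. No marker was at 0 in all 6 libraries. Tumour replicate 1, with the lower hepatocyte sum, had the higher Airn and Slc22a3. In bulk tissue fewer cells of a type and less RNA per cell cannot be told apart, and the part of cell makeup in the results for the 5 genes was not tested.

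Genes of the pathways in which the 5 products act are given without the 5 themselves. Over all genes tested, 11.4% were called between tumour and KAP1-deleted liver (4.8% higher and 6.64% lower). Against control liver the share was 13.9% for tumours and 0.336% for KAP1-deleted liver. The counts of called genes in the lists are descriptions to be set beside these shares. In the renin-angiotensin system, the hormone pathway of Mas1, 14 genes are described, and 1 rose and 2 fell in tumours against KAP1-deleted liver (median log2 fold change -0.14). Angiotensinogen (Agt), the precursor of the peptides, fell to 145 and 145 CPM in tumours, against 314 and 452 CPM in KAP1-deleted livers (log2 fold change -1.40 ± 0.32, edgeR adjusted p = 0.0304). Agtrap, which encodes a protein that binds the angiotensin II receptor, fell (-1.05 ± 0.22, edgeR adjusted p = 0.0240), and the peptidase gene Anpep rose (0.98 ± 0.24, edgeR adjusted p = 0.0408). Each of these 3 calls was lost on leaving out some single libraries. The adjusted p of Agt was 0.137 without KAP1-deleted replicate 2, and 0.144 and 0.128 with tumour library 1 or 2 left out. Leaving out KAP1-deleted library 1, KAP1-deleted library 2, tumour library 1 or tumour library 2, it was 0.119, 0.152, 0.0616 and 0.0824 for Agtrap, and 0.206, 0.0706, 0.153 and 0.129 for Anpep. Over all alternatives the adjusted p reached 1.6e-06 to 0.144 for Agt, 0.00156 to 0.152 for Agtrap and 6.2e-05 to 0.206 for Anpep. The list had 5 calls without control replicate 1, 1 and 0 with KAP1-deleted library 1 or 2 left out, 1 and 0 on leaving out tumour library 1 or 2, and 7 with mouse as a block. Agtr1a, the main angiotensin II receptor gene of liver, stood at 30.0 and 27.5 CPM in tumours, 30.3 and 27.5 CPM in the KAP1-deleted livers and 39.3 and 23.3 CPM in control livers, with no call. Cma1, the chymase gene of mast cells, had 292 counts in tumour replicate 2 and 0 in the other 5 libraries.

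In the mannose 6-phosphate pathway, which serves Igf2r, 27 other genes were tested. Of these 0 rose and 4 fell in tumours against KAP1-deleted liver (median log2 fold change -0.48), beside 11.4% called of all genes tested. Gaa, the lysosomal acid alpha-glucosidase, fell to 14.5 and 13.3 CPM in tumours, against 37.4 and 40.4 CPM in KAP1-deleted livers (log2 fold change -1.48 ± 0.17, edgeR adjusted p = 0.00278). Gaa kept its call without each library. Arylsulfatase A (Arsa) fell to 3.45 and 4.04 CPM in tumours, against 11.3 and 13.5 CPM in the KAP1-deleted livers (-1.73 ± 0.28, edgeR adjusted p = 0.0102, and 0.0753 without tumour replicate 1). Neuraminidase 1 (Neu1) fell by 0.98 on the log2 scale (edgeR adjusted p = 0.0165), as did Gga2, an adaptor that sorts the receptor at the Golgi, by 1.53 (0.0233). The adjusted p of Neu1 was 0.0544 and 0.0952 on leaving out KAP1-deleted library 1 or 2, and 0.103 and 0.0509 with tumour library 1 or 2 left out. That of Gga2 was 0.0941 without KAP1-deleted replicate 2, and 0.133 and 0.0605 with tumour library 1 or 2 left out. Over all alternatives the adjusted p ranged from 2.5e-10 to 0.0753 for Arsa, 3.0e-04 to 0.103 for Neu1 and 1.6e-07 to 0.133 for Gga2. The number called was 9 and 8 with control library 1 or 2 left out, 2 without KAP1-deleted replicate 2, 1 and 2 with tumour library 1 or 2 left out, and 10 with mouse as a block. Igf2r itself went the other way, as shown above. M6pr, the cation-dependent receptor that shares its cargo, stood at 101 and 91.5 CPM in tumours, 70.7 and 80.5 CPM in the KAP1-deleted livers and 69.8 and 97.6 CPM in control livers, with no call. Igf2, whose product Igf2r takes up, had 0 and 4 counts in tumours, 6 and 10 in the KAP1-deleted livers and 3 and 4 in control livers, too few to test.

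Among other transporters of organic cations and carnitine 5 genes are described, and 0 rose and 1 fell in tumours against KAP1-deleted liver (median log2 fold change -0.61). Slc47a1, which encodes the MATE1 exporter of organic cations into bile, fell to 35.8 and 29.2 CPM in tumours, against 86.0 and 98.9 CPM in the KAP1-deleted livers (-1.51 ± 0.21, edgeR adjusted p = 0.00567), a call kept without each library. The number called was 2 with mouse as a block. Of 9 other genes of the SLC22 family 0 rose and 1 fell (median 0.06), beside 11.4% called of all genes tested. Slc22a7, the OAT2 gene of hepatocytes, stood at 0.456 and 1.29 CPM in tumours, against 3.91 and 8.77 CPM in the KAP1-deleted livers (-2.88 ± 0.56, edgeR adjusted p = 0.0227). Its adjusted p was 0.0820 and 0.0854 with control library 1 or 2 left out, 0.0584 without KAP1-deleted replicate 2, 0.0673 with only the 4 libraries of both groups and 0.0686 on leaving out tumour library 1 (range 5.1e-19 to 0.0854 over the alternatives). With mouse as a block 4 of these 9 were called, 2 without either control replicate and 0 without tumour replicate 1. The log2 fold change of Slc22a3 was thus opposite in sign to those of Slc47a1 and Slc22a7, the called genes in these lists. Uncalled genes of the SLC22 list went both ways, such as Slc22a27 (1.57 ± 0.87) and Slc22a26 (-0.76 ± 0.55). This sign therefore does not set Slc22a3 apart from its family.

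Of 16 tested factors of imprint maintenance and silencing, 2 rose and 0 fell in tumours against KAP1-deleted liver (median log2 fold change 0.18). The share called of all genes tested was 11.4%. Zfp57 stood at 0.898 and 2.34 CPM in tumours (65 and 123 counts), against 0.318 and 0.445 CPM in the KAP1-deleted livers (14 and 21 counts), a rise of 2.07 ± 0.52 on the log2 scale (edgeR adjusted p = 0.0412). Uhrf1, which helps to copy methylation at DNA replication and is higher in dividing cells, rose to 2.07 and 1.49 CPM in tumours, against 0.273 and 0.445 CPM in the KAP1-deleted livers (2.30 ± 0.41, edgeR adjusted p = 0.0133). The adjusted p of Zfp57 was 0.160 and 0.117 with KAP1-deleted library 1 or 2 left out, 0.184 without tumour replicate 2, and 0.0867 with limma-voom. That of Uhrf1 was 0.0743 without KAP1-deleted replicate 1 and 0.0721 without tumour replicate 1. Over all alternatives they ranged from 2.0e-05 to 0.184 for Zfp57 and from 1.5e-06 to 0.0743 for Uhrf1. The list had 0 and 1 calls with KAP1-deleted library 1 or 2 left out, and 1 without either tumour replicate. In KAP1-deleted against control liver Trim28 was the 1 gene of the 5 lists that was called. At an unadjusted p below 0.05 in that comparison there were 1, 1, 0, 0 and 3 genes of the renin-angiotensin, mannose 6-phosphate, organic cation, other SLC22 and imprint lists. DESeq2 and limma-voom each called 0, 0, 0, 0 and 1. Without control replicate 2, edgeR called 2 genes of the other SLC22 list.

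Against control liver, where 13.9% of all genes tested were called, the renin-angiotensin list had 1 gene that rose and 2 that fell in tumours. The number called was 1 without either KAP1-deleted replicate, 1 and 0 on leaving out tumour library 1 or 2, and 3 and 2 with control library 1 or 2 left out. The mannose 6-phosphate list had 0 that rose and 5 that fell, with 8 and 3 called with control library 1 or 2 left out, and 3 without tumour replicate 1. The organic cation list and the other SLC22 list each had 0 that rose and 1 that fell, and for the SLC22 list 2 were called without either control replicate. The imprint list had 1 that rose (Zfp57) and 1 that fell (Trim28), with 4 called without control replicate 1, and 1 without control replicate 2 or tumour replicate 2.

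**Figure D5:**
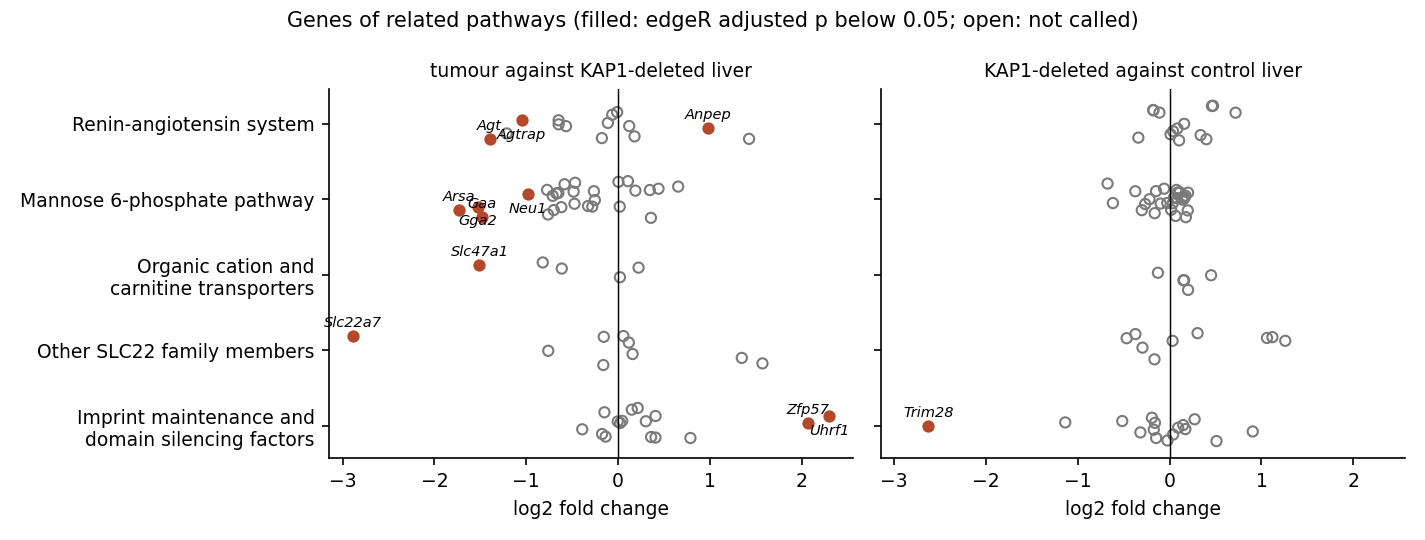
Log2 fold changes of the described genes of the 5 lists, without the 5 genes of the domain, in tumour against KAP1-deleted liver (left) and in KAP1-deleted against control liver (right). Filled red points have an edgeR adjusted p below 0.05 and open points do not. The calls on the left include Agt and Slc22a7 below 0 and Anpep, Zfp57 and Uhrf1 above 0, and the call on the right is Trim28.

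The genes whose levels followed each of the 5 most closely were sought over the 6 libraries by Pearson's r of log2(CPM + 0.5) among 12295 genes with a mean of at least 0.5 CPM. The libraries share groups, mice and makeup, and r does not depend on the size of the change, so these are descriptions. For Airn they were Pcgf6, a polycomb subunit (r = 0.998), Lmo7 (0.998) and Dtx3 (0.998). For Slc22a3 they were Lyrm9 (r = 0.998), the tRNA methyltransferase gene Trmt5 (0.997) and Dcaf1 (0.996). For Igf2r they were the cathepsin O gene Ctso (r = 0.998), Mfap3 (0.995) and the monooxygenase gene Fmo5 (0.994). Those described for Slc22a2 were Fbh1 (r = 0.993) and Tnfaip3 (0.990). Mas1 was followed by Elavl1, which encodes an RNA-binding protein (r = 0.994), Aste1 (0.984) and the stress-response gene Gadd45a (0.983). An r above 0.95 was reached by 425 genes for Airn, 386 for Slc22a3, 278 for Igf2r, 53 for Slc22a2 and 23 for Mas1. Gadd45a stood at 5.48 and 4.27 CPM in tumours, 4.43 and 5.28 CPM in the KAP1-deleted livers and 1.44 and 1.46 CPM in control livers, so it too was high in all 4 libraries with the deletion.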

How the data were processed

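Total RNA was sequenced from 2 tumours, 2 KAP1-deleted livers and 2 control livers. The protocol in the labels names cell lines as the RNA source, whereas the sample labels give tissue, and the batch label is the same for all. The deposited values are raw read counts for each Ensembl gene, made, per the submitters' processing notes, with TopHat and HTSeq 0.6.1 on mm9, and the sources used here do not give the annotation or the strand setting. Symbols, gene order, exon lengths and overlaps come from GENCODE M21 on GRCm38, which gave 32919 of the 37991 genes a symbol, since the files hold no coordinates. Genes without a symbol were kept. Summary entries for reads in no feature and for ambiguous reads were removed. Together they held 36.7% and 33.1% of reads in tumours, 24.8% and 20.9% in the KAP1-deleted livers and 27.6% and 20.9% in control livers. Reads in no feature alone held 35.0% and 31.3% in tumours, 22.3% and 18.1% in the KAP1-deleted livers and 25.2% and 18.0% in control livers.

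Counts were fitted with edgeR 4.0.16 in R 4.3.3 (filterByExpr by group with a minimum count of 10 and total of 15, TMM, robust quasi-likelihood fit, 1 mean per group over all 6 libraries, 3 residual degrees of freedom, prior count 0.125). Two-sided p-values were Benjamini-Hochberg adjusted across the 17558 genes that passed, and an adjusted p below 0.05 was called. TMM factors were 1.31 and 1.22 in tumours, 0.864 and 0.878 in the KAP1-deleted livers and 0.872 and 0.948 in control livers. The SE is the log2 fold change over the square root of F. The scripts were tested on simulated data. Within groups, chi-square over its degrees of freedom was 151 for tumours, 91.6 for KAP1-deleted livers and 355 for control livers, so replicates differed beyond sampling noise. Tumour and KAP1-deleted liver of 1 number share a mouse per the labels, and their deviations from group means correlated with r = 0.165. The fit reported has no term for the mouse.

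Members and gene lists were chosen with earlier results of these data known. Genes named are the 5, their neighbours, Trim28, Zfp57, Igf2, M6pr, Agt and Agtr1a, up to 4 called genes per list with the smallest adjusted p, and the 3 genes most like each of the 5. Cma1 was named after its values were seen. Some genes that this rule takes are not reported here, and the counts of lists leave them out. Alternatives were other scalings and filters, DESeq2 1.42.0, limma-voom (limma 3.58.1), fits on 4 libraries, the mouse as a block, and each library left out.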

Additional observations from a re-analysis of the deposited data

How the results depend on the processing

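The fold changes of the 5 genes in 3 comparisons gave 197 values under the alternatives, of which 190 kept the sign of the value reported. In 7 the sign differed, 6 of them Igf2r and 1 Slc22a2, both between KAP1-deleted and control liver where the values lay near 0. Igf2r was -0.29 there without control replicate 1. With 2 libraries per group, leaving 1 out cannot move a group beyond its own spread, so these values do not measure stability. The count of called genes depended more on the settings. Of KAP1-deleted against control liver, 59 genes were called, 571 with every gene of at least 1 count, 17 with a mean of at least 5 CPM, 224 with DESeq2, 27 with limma-voom, 20 with only the 4 libraries, and 30 to 75 without single libraries, among them 34 without control replicate 1, 30 without tumour replicate 1 and 31 without tumour replicate 2. Of tumour against KAP1-deleted liver, 2007 were called, 3819 with every gene, 1228 with at least 5 CPM, 4476 with the mouse as replicate block, and 640 to 2715 without single libraries, among them 834 when KAP1-deleted library 1 was dropped, 640 for KAP1-deleted library 2, 737 for tumour library 1 and 1184 for tumour library 2. Of tumour against control liver, 2443 were called, 4115 with every gene, 1432 with at least 5 CPM, and 1103 to 2621 without single libraries, among them 1429 when control library 2 was dropped, 1103 for tumour library 1 and 1399 for tumour library 2. The cause was not tested, apart from the number of genes or libraries each setting leaves. The block fit held only the 4 libraries of tumours and KAP1-deleted livers, without the controls, and paired tumour and liver of 1 mouse. With at least 5 CPM, 4 of the 5 genes were tested, as Slc22a2 dropped out. Counts of 25 to 45 for Airn in livers and 4 and 23 for Mas1 in control livers limit the precision of their folds.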
